A study of Mus musculus with 3 samples.

Results

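The genes described are the chemokine ligands Ccl3, Ccl4 and Ccl5 and the chemokine receptor Ccr1, 4 of the 31053 genes of the count matrices. They were followed across lymphoid and myeloid cell classes of the mouse pancreas in barcodes with at least 1000 unique molecular identifiers (UMIs, each standing for 1 captured transcript) of which at most 30% were mitochondrial. The set was selected on the measured levels of Ccl5, the gene with the largest rise in monocytes and macrophages 7 days after treatment, so the values of that contrast are a description and support nothing.

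Live CD45+ leukocytes were sorted by the authors from the pancreas of wild-type C57BL/6 mice and profiled with droplet-based 3' single-cell RNA sequencing. There were 3 libraries. The PBS library came from mice injected with buffer alone, and the 3-day WGP and 7-day WGP libraries came from mice killed 3 and 7 days after WGP. WGP is a particulate beta-glucan from yeast, given as a single intraperitoneal dose. No group carried a transgene or a deletion. By the general methods the mice were 6 to 8 weeks old and of both sexes, and the labels give neither the sex nor the number of mice behind a library. Each group was 1 library, so nothing below could be set against the spread between replicates and no test was made. Values in parentheses are exact 95% intervals that cover counting error only, and 3 values listed together are in the order PBS, 3-day WGP and 7-day WGP.

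CC chemokines are small secreted proteins that draw leukocytes along a gradient through receptors coupled to G proteins. Ccl3 (MIP-1 alpha) and Ccl4 (MIP-1 beta) are close relatives released by activated myeloid cells and cytotoxic lymphocytes. Ccl5 (RANTES) is stored and released by memory T cells and natural killer (NK) cells and can be induced in macrophages by inflammatory signals. Ccr1 is a receptor of Ccl3 and Ccl5 on neutrophils, monocytes and macrophages, and in the mouse it also binds Ccl6, Ccl7 and Ccl9.

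The 3 ligand genes lie near each other on chromosome 11 (GRCm38, GENCODE vM21 annotation). Ccl5 (ENSMUSG00000035042, 83525778 to 83530518, minus strand, 3 exons) and Ccl3 (ENSMUSG00000000982, 83647844 to 83649355, minus strand, 3 exons) were 117325 bases apart. Ccl4 (ENSMUSG00000018930, 83662584 to 83664683, plus strand, 3 exons) began 13228 bases beyond Ccl3. Ccr1 (ENSMUSG00000025804, 123962124 to 123968692, minus strand, 2 exons) is on chromosome 9. No annotated gene overlapped any of them on either strand. The RefSeq table of promoters (GRCm38.p6) matched 2 of the 4 genes, and the 250 bases before their start sites are shown because the levels of Ccl3 and Ccr1 below differ between classes. Capitals mark the matches, on either strand, of 4 searched motifs, which were TATAA (TATA box), TGANTCA (AP-1) and the NF-kB and ISRE motifs.
Ccl3, chr11:83649379-83649628, minus strand: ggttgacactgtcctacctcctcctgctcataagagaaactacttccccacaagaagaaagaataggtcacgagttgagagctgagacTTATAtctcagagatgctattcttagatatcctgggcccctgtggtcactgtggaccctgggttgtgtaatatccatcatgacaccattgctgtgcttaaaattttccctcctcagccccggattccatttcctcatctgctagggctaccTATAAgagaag
Ccr1, chr9:123968693-123968942, minus strand: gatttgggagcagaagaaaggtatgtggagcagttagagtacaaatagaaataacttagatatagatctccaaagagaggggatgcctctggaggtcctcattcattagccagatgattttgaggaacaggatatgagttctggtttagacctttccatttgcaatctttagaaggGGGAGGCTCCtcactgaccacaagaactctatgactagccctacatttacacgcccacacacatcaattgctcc
Bases are counted from the start site of the RefSeq table, which for Ccl3 lies upstream of the GENCODE start. The Ccl3 window held TATAA 11 to 7 bases before the start and its reverse complement 162 to 158 bases before it. The Ccr1 window held 1 NF-kB match, 74 to 65 bases before the start. Of 32851 promoter windows of the same length, 22.8% held TATAA, 17.6% the NF-kB letters, 6.75% the AP-1 letters and 2.98% the ISRE letters, and a match is a description of letters, not a bound site.

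The libraries held 52464690, 56849043 and 48219246 UMIs over all barcodes, and 5249, 4879 and 4174 barcodes met the limits, with medians of 5755, 5754 and 8077 UMIs. The pairs of libraries shared 9, 1 and 5 barcode sequences (PBS with 3-day WGP, PBS with 7-day WGP, and the WGP libraries). Scrublet doublet scores marked 4.19%, 3.89% and 3.33% of the barcodes, which were left out. A class name such as NK cell stands for NK-cell-like clusters, named from markers after clustering without chemokine and chemokine receptor genes. The libraries stood apart in the sex-linked transcripts of their cells. Among monocyte/macrophage cells with either the female transcript Xist or a chromosome Y transcript, but not both, 99.2%, 13.6% and 49.5% carried Xist. The levels of the 4 members in this class are given with and without restriction to such Xist cells. Shares of cells, clusters and other genes of the class are given for all of its cells. Free RNA, read from barcodes of at most 100 UMIs, also differed, with 328, 652 and 1768 CPM of Ccl5, 102, 384 and 427 of Ccl4, 83.3, 259.6 and 159.9 of Ccl3, and 44.9, 67.2 and 68.9 of Ccr1.

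Over all barcodes that met the limits, marked doublets included, each of the 4 genes was lowest in PBS. Levels are CPM, the UMIs of a gene scaled to 1e+06 UMIs of the cells considered. Ccl5 was at 619, 885 and 1867 CPM and Ccl4 at 97.7, 314 and 377 CPM. Ccl3 was at 54.1, 159 and 168 CPM and Ccr1 at 41.3, 57.2 and 92.0 CPM. Such totals move with the share of each class in a sort, so the classes are taken in turn.

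**Figure D1:**
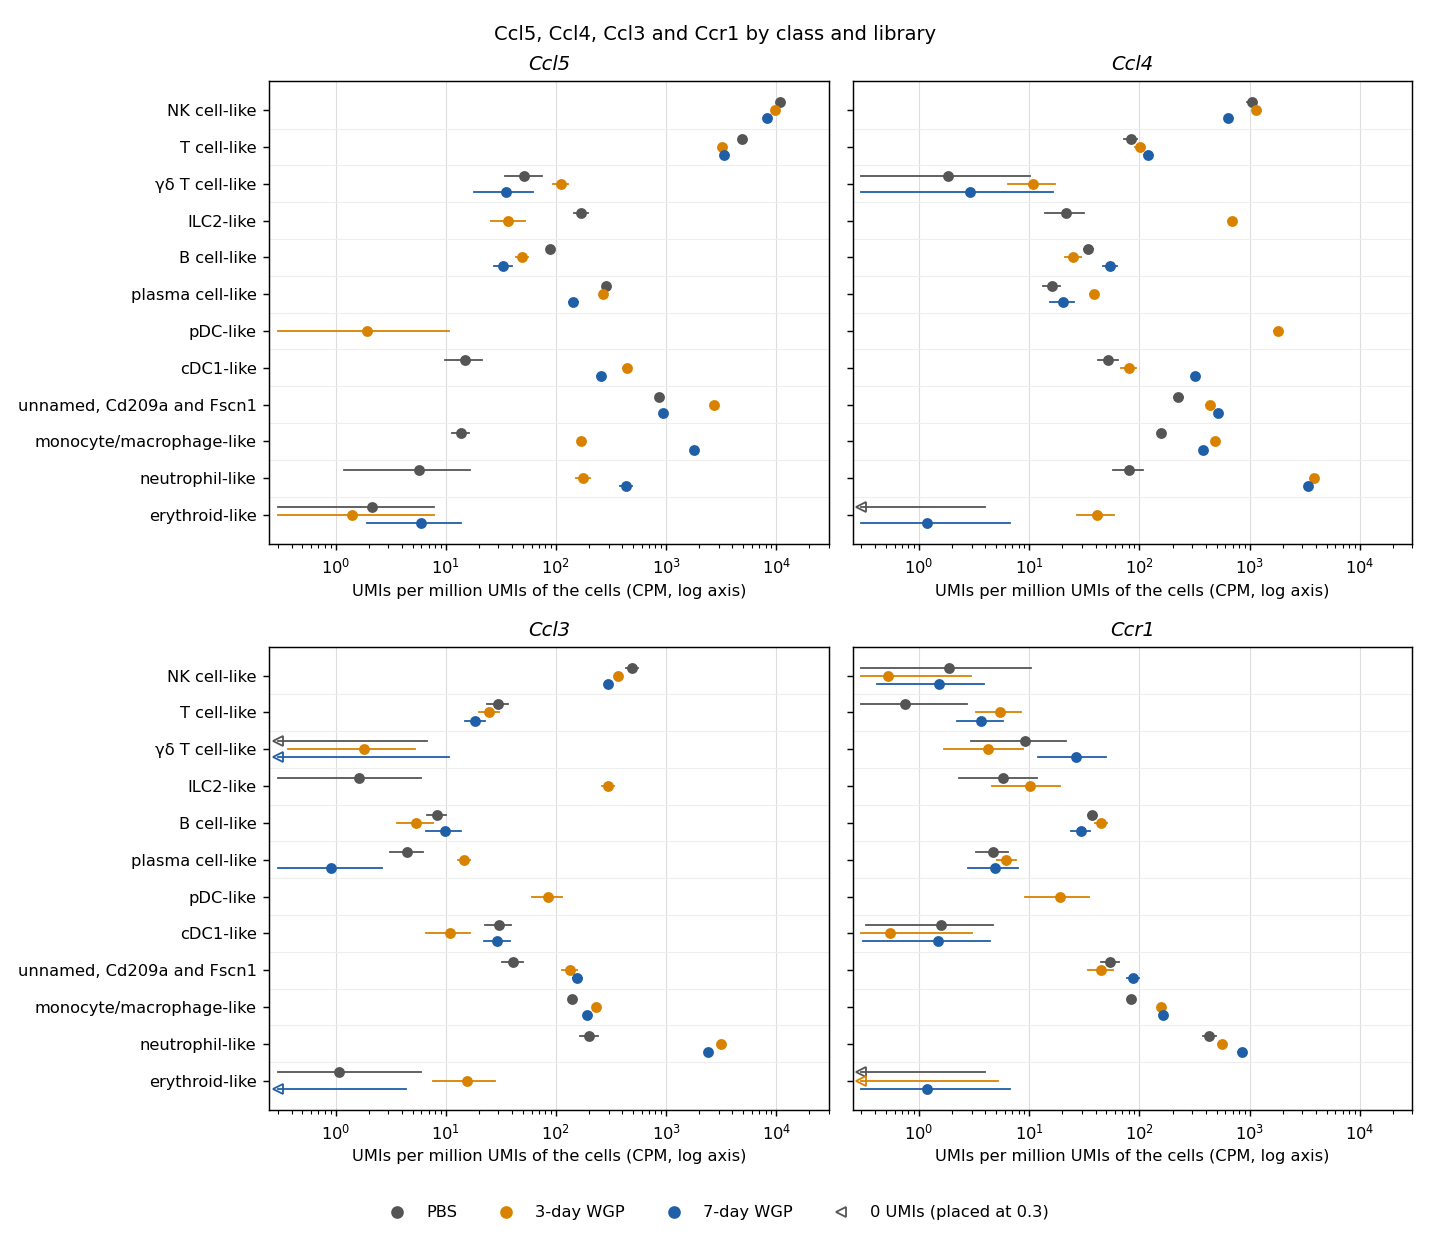
Level of each gene in CPM (log axis) by cell class, 1 panel per gene and 1 colour per library, for classes with at least 50 cells in a library; points are class sums, lines exact 95% Poisson intervals, and open triangles classes with 0 UMIs. NK and T cells lead for Ccl5 in each library, with monocyte/macrophage cells rising from 13.7 to 1782 CPM, while neutrophils lead for Ccl3 and Ccl4 after WGP and for Ccr1 throughout.

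Ccl5 was highest in NK cells, which kill infected or transformed cells, and next in T cells. In NK cells it was at 10743 CPM (10467 to 11025) in PBS, 9672 CPM (9532 to 9813) at 3 days and 8281 CPM (8171 to 8392) at 7 days, from 106, 382 and 379 cells. In T cells it was at 4867 CPM (4784 to 4952), 3230.4 CPM (3173 to 3289) and 3326 CPM (3276 to 3376), from 548, 647 and 679 cells. Both lymphoid classes were highest in PBS, and neither interval of a WGP library overlapped that of PBS, with differences below 2-fold over all cells of a class. The log2 ratios to PBS were -0.15 (-0.19 to -0.11) and -0.38 (-0.42 to -0.33) in NK cells and -0.59 (-0.63 to -0.56) and -0.55 (-0.58 to -0.52) in T cells. In T cells the size differed with the sex-linked transcripts. T cells with Xist and no chromosome Y transcript (151, 153 and 209 cells) were at 4134, 576 and 3936 CPM, with log2 ratios of -2.84 and -0.07, so the 3-day difference exceeded 2-fold there and the 7-day interval overlapped that of PBS. T cells with a chromosome Y transcript and no Xist were at 5987, 3972 and 3001 CPM. Of the 3 members with a mean of at least 10 CPM in NK cells (Ccr1 fell below it), 0 were 2-fold higher or lower at either time. Over all 7414 genes of that class, 1.43% were 2-fold higher and 1.05% lower at 3 days, and 2.4% higher and 0.836% lower at 7 days. The same 3 members passed in T cells and 0 of them reached 2-fold over all T cells, where 0.474% of 7391 genes were higher and 0.0947% lower at 3 days, and 1.34% higher and 0.23% lower at 7 days. These gene-wide shares, here and below, were taken after 5 CPM was added to both levels.

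Nearly every NK cell held Ccl5. After each cell was thinned to 1000 UMIs, 96.2%, 94.8% and 92.3% of NK cells and 48.5%, 42.7% and 50.96% of T cells had a Ccl5 UMI, against 100%, 99.5% and 98.7% and 53.5%, 49.5% and 63.3% without thinning. B cells served as the background class, with 1.55%, 1.07% and 1.55% after thinning and 2.94%, 3.93% and 6.58% without. Median UMIs were 4559, 3695 and 5838 in NK cells, 3608, 4916 and 6191 in T cells, and 3790, 4219 and 5007 in B cells. Plasma cells, which were far deeper (medians 28899, 24253 and 41473), had shares of 11.2%, 12.2% and 7.59% after thinning (26.3%, 32.3% and 20.3% without) and levels of 287, 266 and 144 CPM.

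Within T cells Ccl5 divided the sub-clusters widely. The CD8 T cell sub-cluster 4, led by the granzyme genes Gzma and Gzmk of cytotoxic cells, was at 15325 CPM (14846 to 15815), 12285 CPM (11899 to 12680.2) and 10844 CPM (10515 to 11180.1), from only 40, 62 and 44 cells. Unnamed sub-cluster 1, led by the NK receptor genes Klra7 and Klra1 and also by the NK cell marker Ncr1, was at 9866 CPM (9609 to 10128), 7622 CPM (7419.8 to 7829) and 5051 CPM (4951 to 5152). The other CD8 T cell sub-cluster, 3, led by Cd8b1 and Dapl1, was lower, at 4173, 1109 and 1606 CPM. All 3 were highest in PBS. CD4 T cells (sub-cluster 0) were at 1579, 2358 and 1905 CPM, highest at 3 days, and regulatory T cells (sub-cluster 5, 11, 19 and 85 cells) at 668, 479 and 895 CPM, with 94.8% of the 3-day UMIs in 1 cell. Gamma-delta T cells stood far below the other T cells, at 51.5, 110.3 and 35.1 CPM.

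In monocyte/macrophage cells Ccl5 went from near background to the third place among classes. It was at 13.7 CPM (11.3 to 16.4) in PBS, 169 CPM (161 to 177) at 3 days and 1782 CPM (1762 to 1802) at 7 days, from 809, 749 and 1441 cells. The 3 intervals did not overlap. The log2 ratio to PBS was 3.63 (3.36 to 3.91) at 3 days and 7.03 (6.77 to 7.30) at 7 days, and that of 7 to 3 days was 3.40 (3.33 to 3.47). Among 7622 genes ordered by log2 ratio with 5 CPM added, Ccl5 took rank 16 at 3 days (3.22) and rank 1 at 7 days (6.58), where the next genes were Arg1 (5.96) and Acod1 (5.69). The PBS level was below the 36.3 CPM that free RNA would bring by the acinar transcripts in these cells, while the corresponding values after WGP were 16.4 and 19.4 CPM.

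The share of monocyte/macrophage cells with a Ccl5 UMI told the same order. It was 1.11% (0.510 to 2.10) in PBS, 6.68% (4.99 to 8.71) at 3 days and 37.3% (34.8 to 39.9) at 7 days after thinning, and 4.57%, 19.8% and 62.1% without, at medians of 10010, 13960 and 10724 UMIs. After thinning the PBS share lay below that of B cells (1.55%), whereas without thinning, where these cells were deeper, it lay above (2.94% of B cells). The thinned PBS share is read as background. At 7 days 11.1% of the cells (160 cells) held 5 or more Ccl5 UMIs of 1000, against 0.668% at 3 days and 0 of 809 cells in PBS. The corresponding share of NK cells was 75.5%, 67.8% and 71.8%.

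**Figure D2:**
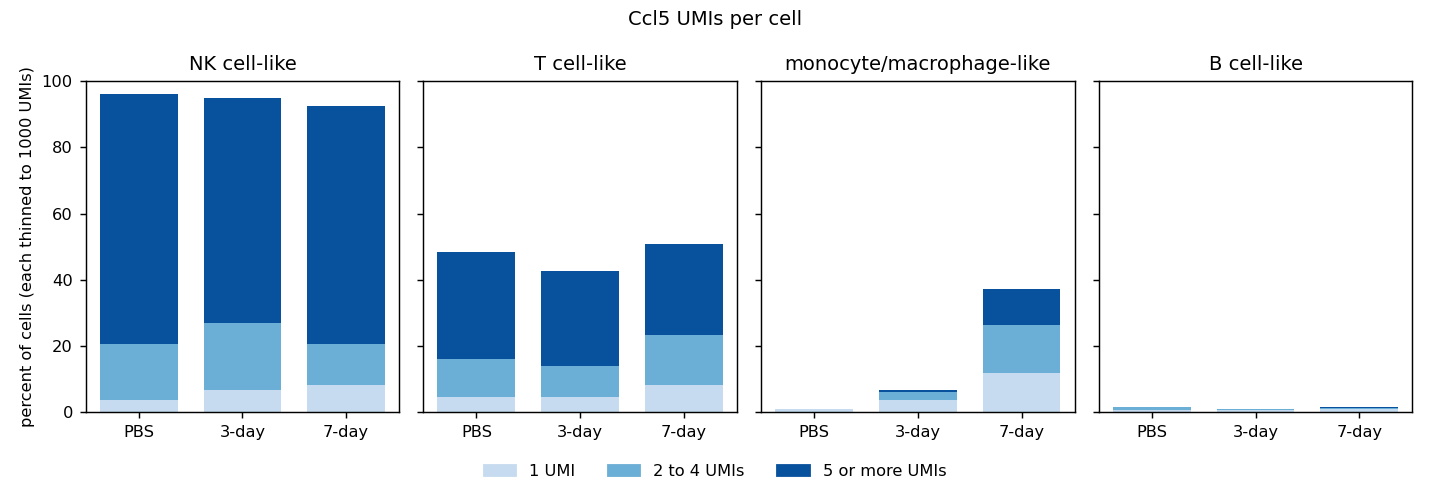
Percent of cells (vertical axis) with 1, 2 to 4, or 5 or more Ccl5 UMIs after thinning each cell to 1000 UMIs, stacked, by class and library. Most NK cells held 5 or more in each library, while in monocyte/macrophage cells that group went from 0% in PBS to 0.668% and 11.1% after WGP.

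Markers of NK and T cells were sparse in these monocyte/macrophage cells. Of 7 NK cell markers 2, 7 and 7 had a UMI (Ncr1, Klra8, Eomes, Gzma and Prf1 were at 0 in PBS), with a summed level of 0.588, 15.8 and 4.25 CPM against 9245 to 10408 CPM in NK cells. The 6 T cell markers summed to 2.001, 21.3 and 18.4 CPM, against 4659 to 4889 CPM in T cells, with Cd3d and Cd3g at 0 in PBS. In the 789, 692 and 1318 cells without a UMI of any of these markers, Ccl5 was at 13.9, 138 and 1728 CPM, so the order and the 7-day level were nearly as in the whole class. After WGP the cells with such a marker were higher, at 448 CPM in 57 cells at 3 days and 2268 CPM in 123 cells at 7 days. Neutrophil markers in the class summed to 155, 482 and 196 CPM and acinar markers to 1061, 126 and 103 CPM. The part of NK cell, T cell, neutrophil or acinar RNA in the result was not tested, and a cell without a marker UMI can still hold such RNA.

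Different clusters held most of the class in each library, which were cluster 7 in PBS (649 of 809 cells), cluster 8 at 3 days (411 of 749) and cluster 0 at 7 days (1077 of 1441). The order in cluster 0 was as in the whole class, and the values of clusters 7 and 8 carried the limits given with them. In cluster 0, led by Ly6i, Cxcl9 and Cxcl10, Ccl5 was at 17.8 CPM (11.4 to 26.4), 168 CPM (154 to 184) and 1637 CPM (1614 to 1660.1), and the log2 ratios to PBS were 3.24 (2.65 to 3.90) and 6.53 (5.95 to 7.17). In cluster 7, led by Pf4, Mrc1 and Folr2, it was at 13.1, 67.3 and 351 CPM, but 48.2% of the last value came from 1 of 48 cells and free RNA would bring 43.3, 70.3 and 79.5 CPM, the first 2 above the measured level. In cluster 8, led by Saa3, Arg1 and Gpnmb, it was at 186 CPM at 3 days and 2264 CPM at 7 days, with 7 cells in PBS.

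Clustering these cells again drew the range wider. At 7 days Ccl5 was highest in sub-cluster 2, the inflammatory macrophages (530 cells), at 2892 CPM (2850.5 to 2935). It was next in unnamed sub-cluster 1, led by Arg1 and Saa3 (224 cells), at 2013 CPM (1966 to 2059), and in unnamed sub-cluster 3, led by Mucl1 and Retnla (52 cells), at 1762 CPM (1645 to 1885), of which 46.9% came from 1 cell. Ly6C-high monocytes (sub-cluster 0, 522 cells) followed at 638 CPM (617 to 659.6). Resident macrophages (sub-cluster 4) stayed low, at 2.97, 8.81 and 11.1 CPM from 321, 53 and 11 cells, with overlapping intervals and below the free RNA estimate, and Ly6C-low monocytes (sub-cluster 5) were at 4.35 CPM in PBS and 24.9 CPM at 7 days. The 3-day value of the latter, 289 CPM, rested on 1 cell with 95.3% of the UMIs. In Ly6C-high monocytes the levels before were 47.3 CPM in PBS and 71.4 CPM at 3 days, and the log2 ratio of 7 to 3 days was 3.16 (2.93 to 3.40).

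**Figure D3:**
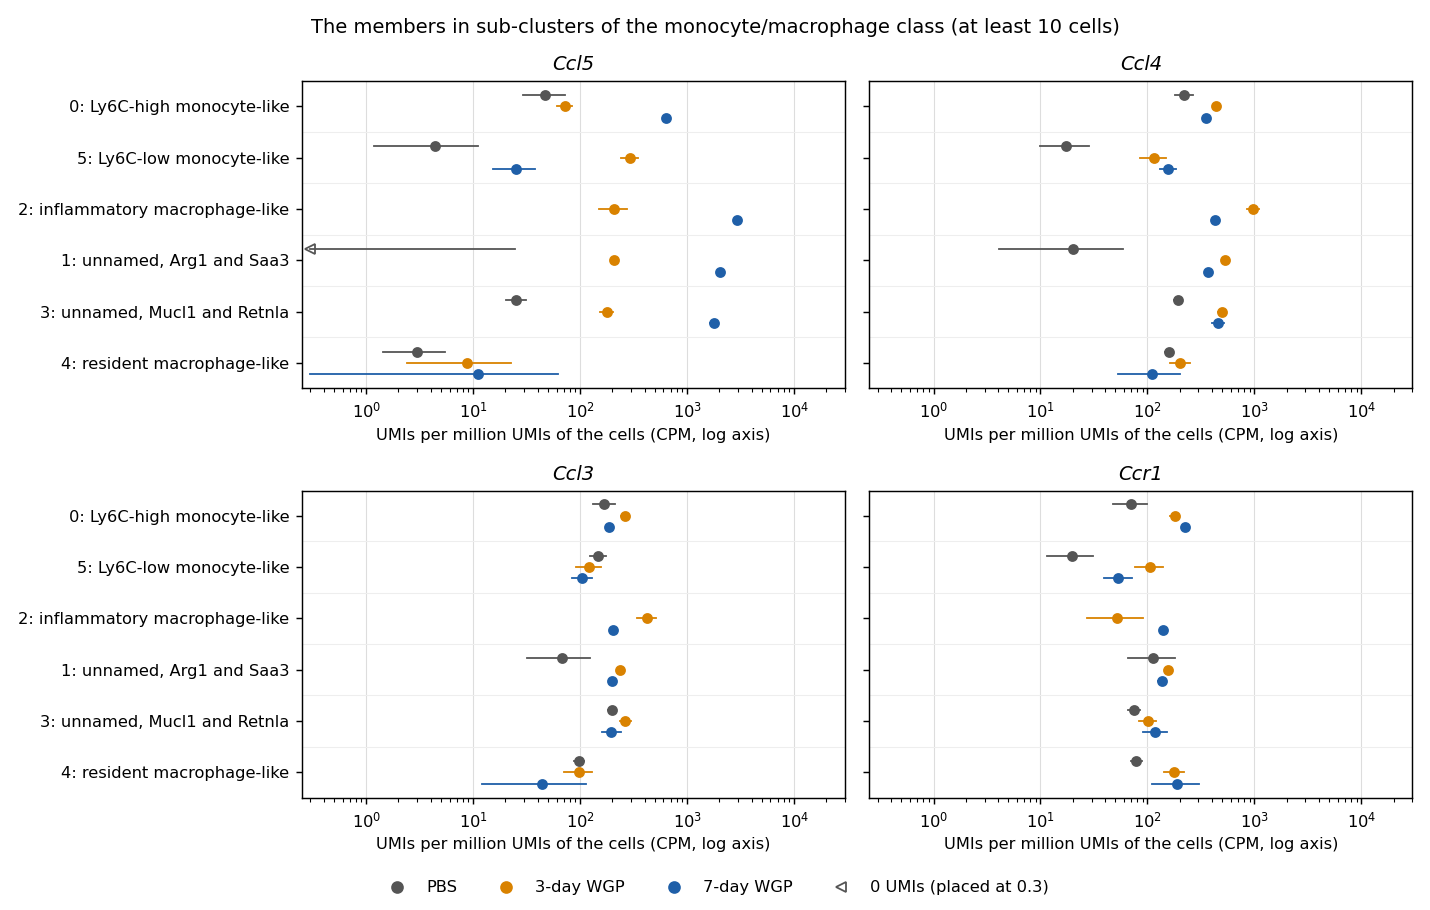
Level of each gene in CPM (log axis) by sub-cluster of monocyte/macrophage cells and by library, for values from at least 10 cells. Sub-cluster 6 is not drawn, and lines are exact 95% Poisson intervals. At 7 days Ccl5 runs from 11.1 CPM in resident macrophages, from only 11 cells, to 2892 CPM in inflammatory macrophages.

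Sex-linked transcripts moved with the libraries. Among monocyte/macrophage cells with Xist and no chromosome Y transcript (762, 76 and 564 cells), Ccl5 was at 13.9, 50.8 and 1036 CPM. The order was as in all cells of the class, and the log2 ratios were 1.87 and 6.22. At 7 days cells with a chromosome Y transcript and no Xist were higher, at 2286 CPM in 575 cells. PBS held 6 such cells, too few for a ratio. What the sex of the cells adds to the difference between libraries was not tested.

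Dendritic cells held Ccl5 unevenly. Unnamed cluster 12, which carried cDC2 and migratory DC markers, was at 859.8 CPM (821 to 900.1), 2698 CPM (2609 to 2788) and 935 CPM (899.5 to 972). Its migratory DC sub-cluster, cells that travel to lymph nodes, held 1505 of 1831, 3003 of 3509 and 1576 of 2600 of these UMIs, with 13612, 11028 and 7082 CPM in only 9, 28 and 24 cells and 60% of the PBS UMIs in 1 cell. Cross-presenting cDC1 cells were at 14.8, 439 and 258 CPM, with 67.9%, 25.2% and 44.4% of the UMIs in 1 cell each and shares of 0.877%, 12.2% and 4.90% of cells after thinning (4.39%, 23.02% and 21.6% without). Plasmacytoid DCs had 0 Ccl5 UMIs in PBS, 1 at 3 days and 70 at 7 days, 94.3% of the last in 1 cell. The group 2 innate lymphoid cells (ILC2) were at 169 and 37.03 CPM in PBS and at 3 days, with 11 cells at 7 days.

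The remaining classes were low or could not be read. Levels in B cells were 88.2, 49.2 and 33.3 CPM. Only cluster 3 was lower after WGP, at 229, 67.5 and 19.9 CPM, where 3.64%, 1.15% and 0.541% of cells had a Ccl5 UMI after thinning (5.25%, 3.82% and 3.78% without). Clusters 2 and 4 were higher after WGP, with 12.7, 29.9 and 35.1 CPM and 11.1, 47.1 and 39.6 CPM, although in cluster 2 the counts were 32, 26 and 23 UMIs. B cells with Xist and no chromosome Y transcript were at 1.08, 1.44 and 47.5 CPM, from 4, 2 and 44 UMIs. Those with a chromosome Y transcript and no Xist were at 172, 95.7 and 11.4 CPM, so the direction in B cells differed with the sex-linked transcripts. Erythroid cells stayed between 1.41 and 5.95 CPM. Unnamed cluster 17, with T cell and B cell markers together, was at 1347 CPM in PBS (160 cells) and 1227 CPM at 3 days (31 cells). Unnamed cluster 20 was at 204 CPM in PBS with all UMIs in 1 cell, and unnamed cluster 15, a shallow cluster with acinar markers, was at 6.75, 398 and 421 CPM. Acinar cells at 3 days (82 barcodes, median 1432 UMIs) were at 2004 CPM.

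In the order of classes, NK cells were first and T cells next for Ccl5 in all 3 libraries, with no overlap of intervals between neighbours. The third place went to unnamed cluster 17 in PBS, to unnamed cluster 12 at 3 days and to monocyte/macrophage cells at 7 days. Monocyte/macrophage cells were eleventh of 15 classes in PBS, where their interval overlapped that of the next class, and ninth of 14 at 3 days.

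Ccl4 was highest in neutrophils after WGP. Neutrophil cluster 13, led by Hdc, G0s2 and Cxcl2, was at 310.1 CPM (222 to 422) in PBS, 4785 CPM (4638 to 4935) at 3 days and 4199.6 CPM (4014 to 4391) at 7 days, from 49, 211 and 179 cells. The whole class was at 80.2 CPM (57.8 to 108), 3837 CPM (3721 to 3956) and 3371 CPM (3222 to 3525). The PBS intervals lay far below the others on either grouping. The class also held cluster 23, led by the granule genes Camp, Ngp and Ltf of immature neutrophils, which made up 34 of 83 cells in PBS but 13 of 224 and 6 of 185 after WGP, so cluster 13 alone was taken as an alternative chosen after the data were seen. The log2 ratios of Ccl4 to PBS were 5.58 (5.14 to 6.06) and 5.39 (4.95 to 5.87) in the class, and 3.95 and 3.76 in cluster 13.

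Ccl3 followed the same pattern in these cells. It was at 799 CPM (652 to 968), 4007 CPM (3872 to 4144) and 2954 CPM (2799 to 3115) in cluster 13 and at 200.5 CPM (164 to 243), 3158 CPM (3052 to 3266) and 2380.4 CPM (2256 to 2510.1) in the class. Both WGP libraries were above PBS, and 3 days was above 7 days, with no overlap of intervals. The log2 ratios were 3.98 (3.70 to 4.27) and 3.57 (3.28 to 3.87) in the class, and 2.33 and 1.89 in cluster 13, whose PBS value rests on 49 cells.

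Sex-linked transcripts moved with these changes. Of neutrophils with either Xist or a chromosome Y transcript, but not both, 77.8%, 9.90% and 29.2% had Xist. In these few cells (21, 10 and 19) Ccl3 was at 93.4, 289 and 1892 CPM and Ccl4 at 78.5, 375 and 2368 CPM, both lowest in PBS but highest at 7 days. Cells with a chromosome Y transcript and no Xist were at 4251 and 1798 CPM of Ccl3 at 3 and 7 days, and the 6 such cells in PBS held 0 Ccl3 UMIs. The part of the sex-linked mix, or of the mix of clusters, in the differences was not tested.

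After thinning, 10.8%, 51.8% and 43.8% of neutrophils had a Ccl3 UMI and 6.02%, 41.5% and 34.6% a Ccl4 UMI, against at most 0.774% and 2.38% of B cells. Without thinning the neutrophil shares were 15.7%, 62.5% and 50.8% for Ccl3 and 8.43%, 47.8% and 42.2% for Ccl4, at medians of 2942, 3550.5 and 2326 UMIs.

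Of the 4 members, 3 (Ccl3, Ccl4 and Ccl5) were at least 2-fold higher in the neutrophil class at each time and 0 were 2-fold lower. Many other genes of this class did the same. Among 6101 genes, 22.1% were higher and 6.28% lower at 3 days, and 18.7% higher and 6.59% lower at 7 days. Ccl5 was at 5.73 CPM in PBS and passed the limit of 10 CPM in the class only through the WGP libraries. Its calls in the class are a description and support nothing. In cluster 13, 2 of 4 members (Ccl3 and Ccl4) were higher at 3 days and 3 (Ccl5 added) at 7 days, with 0 lower. There, 20.5% of 5893 genes were higher and 8.64% lower at 3 days, and 18.2% higher and 10.3% lower at 7 days. The median log2 ratio of all genes was 0.40 and 0.24 in the class and 0.20 and 0.06 in cluster 13. Markers of monocyte/macrophage cells summed to 2473, 1908 and 2672 CPM in cluster 13, against 28620.5 to 31376 CPM in their own class, with Fcgr1 and Ms4a7 at 0 in PBS, Ms4a7 at 0 at 3 days and Mrc1 at 0 at 7 days.

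Ccl5 in neutrophils was sparse. The class was at 5.73, 176 and 436 CPM and cluster 13 at 23.3, 27.3 and 543 CPM. The 3-day value of the class came mostly from 1 cell, of cluster 23, with 73.5% of its UMIs. Only the 7-day value thus stood above PBS in both groupings. In the 19 neutrophils with Xist and no chromosome Y transcript Ccl5 was at 34.8 CPM (7.18 to 102) at 7 days. That interval overlapped the one of PBS (0.905 to 27.0), where part of the UMIs came from cluster 23. The 46 cells with a chromosome Y transcript and no Xist were at 778 CPM at 7 days. At 7 days 10.3% (6.30 to 15.6) of neutrophils had a Ccl5 UMI after thinning and 15.1% without, above the B cell shares of 1.55% and 6.58%, and free RNA would bring 45.6 CPM by the acinar transcripts.

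Monocyte/macrophage cells were also higher in Ccl4 and Ccl3 after WGP, by less. Ccl4 was at 156 CPM (147 to 164), 484 CPM (471 to 497) and 376 CPM (367 to 386), and the log2 ratios to PBS were 1.64 (1.55 to 1.72) and 1.27 (1.19 to 1.36). Ccl3 was at 139.9 CPM (132 to 148), 233 CPM (224 to 242) and 192 CPM (185 to 198), and the log2 ratios to PBS were 0.74 (0.64 to 0.84) and 0.45 (0.36 to 0.55). Both were highest at 3 days, lowest in PBS, and without overlap. The shares of cells after thinning were 8.03%, 22.03% and 18.7% for Ccl4 and 11.1%, 15.4% and 12.6% for Ccl3, and 24.4%, 51.9% and 41.4% and 38.3%, 49.8% and 40.04% without. Among the 4 members, 2 (Ccl4 and Ccl5) were at least 2-fold higher in this class at each time and 0 were 2-fold lower, where 4.34% of 7622 genes were higher and 3.73% lower at 3 days, and 4.79% higher and 6.28% lower at 7 days. Within cells with Xist and no chromosome Y transcript the 3-day log2 ratio of Ccl4 was 0.67, below 2-fold, and that of Ccr1 was 1.43, above it, so these calls at 3 days depended on that restriction. The median gene of all cells of the class moved by -0.04 and -0.12.

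The Ccl3 difference depended more on the processing. At 7 days its log2 ratio was -0.03 when barcodes above 10000 UMIs were left out, which turned the direction. Within cells with Xist and no chromosome Y transcript Ccl3 was at 127, 162 and 189 CPM and Ccl4 at 139, 221 and 336 CPM, still lowest in PBS but highest at 7 days. Within cluster 0 the levels were 109, 395 and 362 CPM for Ccl4 and 159, 250.3 and 185 CPM for Ccl3, and within cluster 7 they were 167, 458 and 377 CPM and 138, 218 and 245 CPM. Among sub-clusters, Ly6C-low monocytes had the lowest Ccl4 in PBS of those with over 10 cells, 17.4 CPM, and resident macrophages kept Ccl3 at 96.7 and 96.9 CPM in PBS and at 3 days. Other sub-clusters ran against the class in Ccl3 at 7 days. Ly6C-low monocytes were lower than in PBS, at 104 against 147 CPM (log2 ratio -0.49 (-0.90 to -0.09)), and sub-cluster 3 was at 196 against 197 CPM, with a log2 ratio of -0.01 (-0.34 to 0.30).

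**Figure D4:**
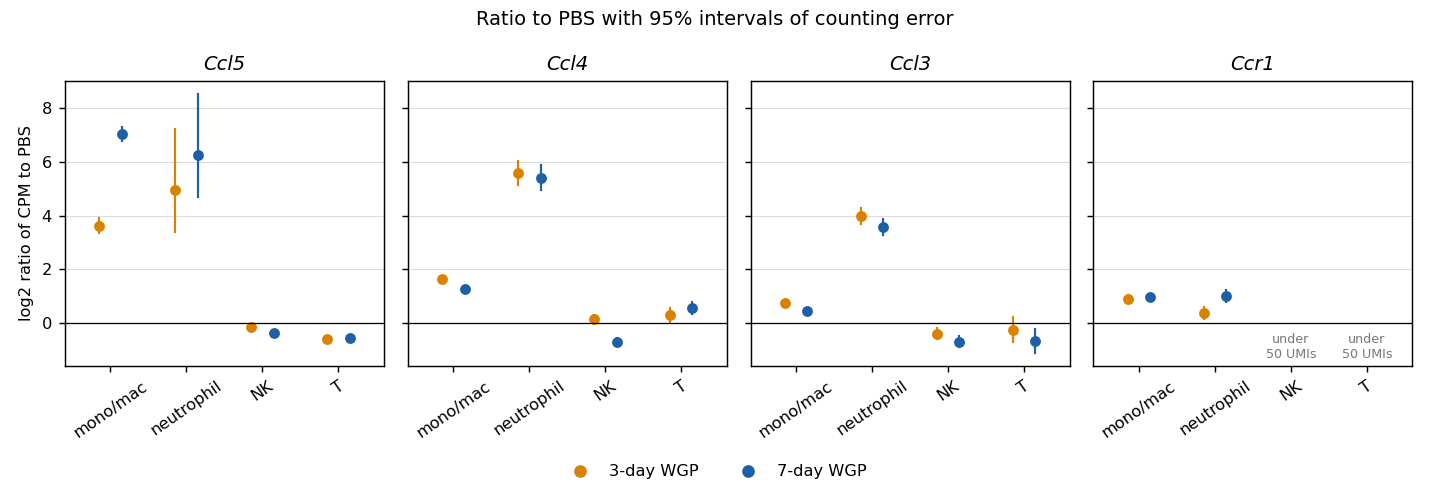
Log2 ratio of the CPM of each gene, 3-day or 7-day WGP to PBS, in 4 classes, with intervals from the exact binomial interval of the 2 counts; members with fewer than 50 UMIs in the pair are left out, and 0 marks no difference. Ccl5 reaches 3.63 and 7.03 in monocyte/macrophage cells, and in neutrophils Ccl4 reaches 5.58 and 5.39 and Ccl5 4.94 and 6.25, the latter against 3 UMIs in PBS and with wide intervals, while NK and T cells lie between -0.72 and 0.53.

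NK cells carried Ccl4 and Ccl3 in all 3 libraries. Ccl4 was at 1039 CPM (954 to 1129), 1149.8 CPM (1102 to 1199) and 639.9 CPM (609.6 to 671), and the log2 ratios to PBS were 0.15 (0.01 to 0.28) and -0.70 (-0.84 to -0.56). Ccl3 was at 489 CPM (431 to 552), 368 CPM (341 to 396) and 297 CPM (277 to 319), and the log2 ratios to PBS were -0.41 (-0.62 to -0.20) and -0.72 (-0.92 to -0.51). Both genes were lowest at 7 days, except that Ccl3 was above PBS at 7 days (log2 ratio 0.33) within cells with Xist and no chromosome Y transcript. In PBS 1 cell held 28.6% of the Ccl4 and 33.3% of the Ccl3 UMIs of 106 cells.

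T cells held little of either gene. Ccl4 was at 82.9, 101 and 120.00 CPM and Ccl3 at 29.6, 24.9 and 18.5 CPM. The direction of Ccl4 at 3 days, and of Ccl3 at 7 days, turned under some settings of the processing. The cytotoxic CD8 T cell sub-cluster 4 had the most Ccl4 in PBS, at 471, 279 and 298 CPM, and sub-cluster 1 reached 357 CPM at 3 days from 82.8 CPM in PBS and 79.6 CPM at 7 days. The regulatory T cell value at 7 days, 294 CPM, came to 87.1% from 1 cell.

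Plasmacytoid DCs, which release type I interferon, were a further place of Ccl4. It was at 1608 CPM (1465 to 1762), 1789.8 CPM (1677 to 1908) and 1073 CPM (964 to 1191) in 41, 75 and 37 cells, and 43.9%, 44% and 29.7% of them had a UMI after thinning (56.1%, 69.3% and 48.6% without). Their Ccl3 was at 194, 84.1 and 51.8 CPM, highest in PBS. In cDC1 cells Ccl4 was at 51.9, 79.7 and 322 CPM, with 60.2% of the PBS UMIs in 1 cell, and the log2 ratio was 0.62 at 3 days and 2.63 (2.32 to 2.95) at 7 days. Unnamed cluster 12 was at 225, 437 and 519.7 CPM for Ccl4 and 40.4, 133 and 156 CPM for Ccl3, both lowest in PBS, whereas its migratory DC sub-cluster had 0, 11 and 3 Ccl4 UMIs.

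A few cells set the ILC2 values. At 3 days Ccl4 was at 685 CPM (631 to 741) and Ccl3 at 297 CPM (263 to 335), against 21.3 and 1.64 CPM in PBS. Only 2.47% and 1.77% of the 283 cells had a UMI after thinning (3.89% and 2.12% without), against 2.38% and 0.238% of B cells (5.96% and 1.79%), and 1 cell held 30.98% and 43.02% of the UMIs. NK cell and monocyte/macrophage markers in ILC2 summed to 2.24 and 23.6 CPM at 3 days.

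Cells with Ccl3 often held Ccl4 too. In neutrophils at 3 days, 83 cells had a UMI of both after thinning, 33 of Ccl3 alone, 10 of Ccl4 alone and 98 of neither, so 71.6% of cells with Ccl3 and 9.26% of those without had Ccl4. At 7 days the counts were 46, 35, 18 and 86, and the shares 56.8% and 17.3%. In NK cells 58.3%, 57.6% and 50.9% of cells with Ccl3 had Ccl4, against 19.5%, 33.0% and 16.5% of the others. In monocyte/macrophage cells these shares were 23.3%, 48.7% and 40.1%, against 6.12%, 17.2% and 15.6%. The share was higher among cells with Ccl3 in each class and library named. Ccl5 went less with Ccl4 in monocyte/macrophage cells at 7 days, where 40.9% of cells with Ccl4 and 36.5% of those without had Ccl5.

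Ccr1 was highest in myeloid classes. Neutrophil cluster 13 was highest, at 1225 CPM (1041 to 1432), 666 CPM (612 to 723) and 1009 CPM (919 to 1105), lowest at 3 days, with log2 ratios of -0.88 and -0.28. Cluster 23 was at 172, 152 and 238 CPM, from 34, 13 and 6 cells. The whole neutrophil class rose instead, from 432 to 555 and 856 CPM, and its log2 ratios were 0.36 (0.14 to 0.59) and 0.99 (0.76 to 1.22), so the direction in neutrophils depended on whether cluster 23 was counted. After thinning, 55.1%, 49.8% and 58.7% of cluster 13 had a Ccr1 UMI, and 83.7%, 77.3% and 79.3% without thinning, at medians of 2568, 3524 and 2295 UMIs.

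Monocyte/macrophage cells came next in the named classes. Ccr1 was at 83.2 CPM (77.2 to 89.6) in PBS, 155 CPM (148 to 163) at 3 days and 162 CPM (156 to 168) at 7 days. Both WGP values were above PBS and overlapped each other, with log2 ratios to PBS of 0.90 (0.77 to 1.03) and 0.96 (0.84 to 1.08) and of 7 to 3 days of 0.06 (-0.03 to 0.15). The shares of cells were 8.41%, 12.8% and 14.1% after thinning and 34.5%, 64.6% and 56.5% without. In cells with Xist and no chromosome Y transcript the levels were 83.1, 223 and 162 CPM, again lowest in PBS.

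Within this class cluster 0 was at 32.6, 162 and 176 CPM, and its log2 ratios were 2.32 (1.87 to 2.80) and 2.44 (2.01 to 2.90). In cluster 7 the levels were 92.01, 193 and 162 CPM. Ly6C-high monocytes were at 69.9, 179 and 223 CPM, and Ly6C-low monocytes were lower in each library, at 19.6, 105 and 53.3 CPM. Resident macrophages were at 78.6, 178 and 188 CPM, and a small unnamed sub-cluster (6) led by Cxcl13 and Lyve1 at 319 and 339 CPM from 34 and 13 cells, with none at 7 days. Unnamed cluster 21, led by Retnla and Ear2, was at 145 CPM (120.1 to 174) in PBS (55 cells).

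NK and T cells held almost none. NK cells had 1, 1 and 4 Ccr1 UMIs in all and T cells 2, 20 and 19. Among dendritic cells, cDC1 cells had as few, with 3, 1 and 3, and unnamed cluster 12 was at 53.999, 44.6 and 87.4 CPM. Gamma-delta T cells were at 9.19 and 4.22 CPM in PBS and at 3 days and 26.3 CPM (12.03 to 49.9) at 7 days, the last from 9 UMIs and overlapping B cells. B cells were higher than NK and T cells in each library, with 37.1 CPM (33.8 to 40.7), 44.7 CPM (39.2 to 50.7) and 29.3 CPM (23.7 to 35.8) and 11.4%, 14.2% and 11.03% of cells with a UMI without thinning (1.86%, 2.38% and 1.55% after). Their free RNA estimate was at most 1.36 CPM, and markers of monocyte/macrophage cells in B cells summed to 77.7, 133 and 219 CPM against 28620.5 to 31376 CPM in their own class. Among B cell clusters, cluster 4 was highest, at 72.2, 66.2 and 48.4 CPM, with clusters 2 and 3 at 8.70, 9.21 and 12.2 CPM and 10.4, 14.1 and 5.52 CPM. In the order of classes neutrophils were first in each library, without overlap with the next class.

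Ccr1 and Ccl5 were both present in monocyte/macrophage cells. At 7 days 65 of them had a UMI of each after thinning, and 12.1% of cells with Ccl5 had Ccr1 against 15.3% of those without.

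The classes differed in how much of each gene they supplied. Of the Ccl5 UMIs of all clustered cells, T cells held 49.4% and NK cells 21.8% in PBS, NK cells 43.1% and T cells 28.04% at 3 days, and monocyte/macrophage cells 40.7%, NK cells 29.7% and T cells 23.6% at 7 days. The monocyte/macrophage part was 0.442% in PBS and 4.46% at 3 days. Neutrophils held 5.06%, 44.01% and 22.5% of Ccl3 and 1.07%, 26.8% and 14.4% of Ccl4, and monocyte/macrophage cells 57.2%, 34.1% and 52.6% of Ccl3 and 33.8%, 35.5% and 46.6% of Ccl4. For Ccr1, monocyte/macrophage cells held 41.7%, 61.8% and 74.1%, neutrophils 13.3%, 21.01% and 13.5% and B cells 26.4%, 8.51% and 2.63%. These parts move with class sizes, which a sort and the sex-linked mix of the libraries can set.

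**Figure D5:**
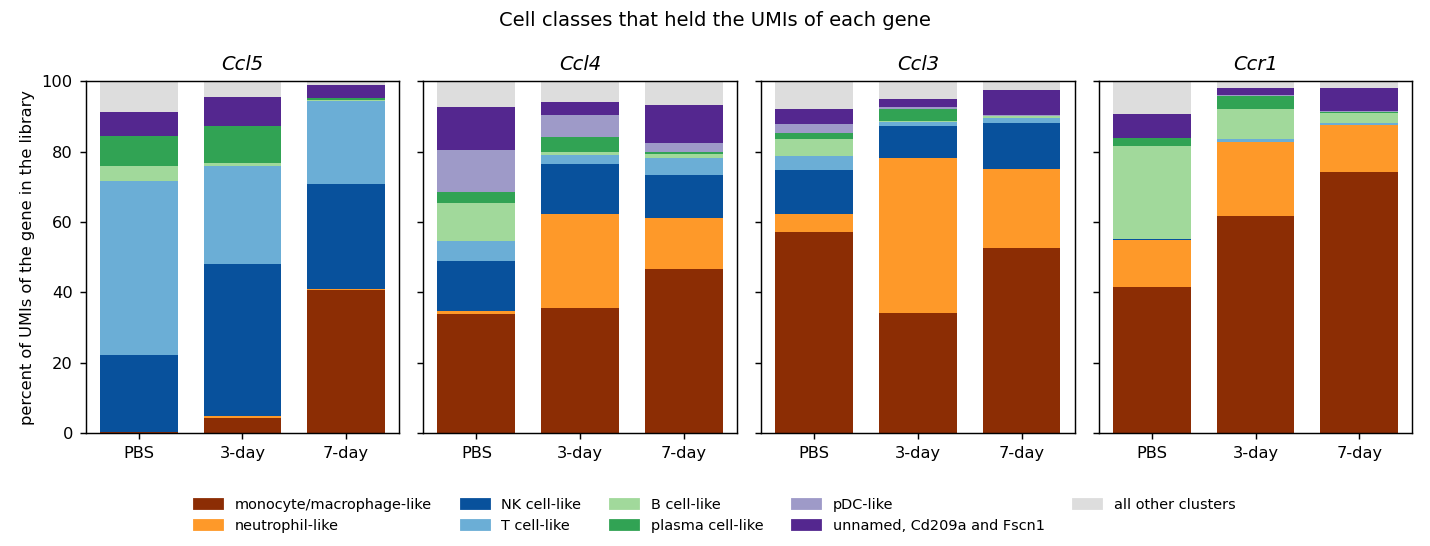
Percent of the UMIs of each gene that came from each class (stacked bars), by library. The Ccl5 bar changes from T and NK cells in PBS to monocyte/macrophage cells as the largest part at 7 days (40.7%), and neutrophils supply 44.01% of Ccl3 at 3 days.

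The other ligands of Ccr1 were set beside the members in monocyte/macrophage cells. Of the list of 5 (the members Ccl3 and Ccl5, with Ccl6, Ccl7 and Ccl9), 5 passed the limit of 10 CPM. At 3 days 3 were at least 2-fold higher (Ccl5, Ccl6 and Ccl9) and 1 lower (Ccl7). At 7 days 2 were higher (Ccl5 and Ccl6) and 1 lower (Ccl7). Over all genes of the class 4.34% were higher and 3.73% lower at 3 days, and 4.79% and 6.28% at 7 days. The set was selected on Ccl5, so its part in these counts supports nothing. Ccl6, a myeloid chemokine, was at 946, 3433 and 2018 CPM and Ccl9 at 444, 986 and 535 CPM, both highest at 3 days. Ccl7, which draws monocytes, was at 76.6, 24.5 and 15.8 CPM and ran the other way. In neutrophil cluster 13, Ccl6 was at 2279, 1042 and 1098 CPM, lower after WGP while Ccl3 and Ccl4 were higher.

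Of 20 CC ligands, 10 passed in monocyte/macrophage cells, with 4 higher and 3 lower at 3 days (median log2 0.69, all genes -0.04). At 7 days 3 were higher and 4 lower (median 0.30, all genes -0.12). The members Ccl4 and Ccl5 were among those higher at each time. Of 11 CC receptors 3 passed and 1 was higher at each time, Ccrl2, a receptor-like protein that binds chemerin, at 51.3, 255 and 426 CPM. Of 15 other chemokines (Cxcl11 not analysed here) 8 passed. At 3 days 3 were higher and 1 lower, and at 7 days 4 were higher and 2 lower. Of those higher, Cxcl1 (6.94 CPM in PBS) and Cxcl3 (0.118 CPM) passed the limit only through the WGP libraries. Such calls are a description and support nothing. The interferon-gamma-induced ligands Cxcl9 and Cxcl10 were at 104, 90.9 and 1367 CPM and 43.1, 45.5 and 967 CPM, high at 7 days alone, and the neutrophil attractant Cxcl2 was at 205, 897 and 730.5 CPM. Pf4 went from 1873 to 553 and 78.2 CPM, and of 8 other receptors 2 passed, with Cx3cr1, the fractalkine receptor, at 326, 76.6 and 61.7 CPM as the 1 that was lower at each time.

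Neutrophil cluster 13 showed a related set. Of 20 CC ligands 6 passed, 3 higher and 1 lower at 3 days and 4 higher and 1 lower at 7 days (medians 1.26 and 2.81, all genes 0.20 and 0.06), beside 20.5% higher and 8.64% lower of all genes at 3 days and 18.2% and 10.3% at 7 days. The members Ccl3 and Ccl4 were among those higher at each time, and Ccl5 at 7 days. These counts and medians thus include the members and are a description. Beside the members, Cxcl10 was at 0, 177 and 4174 CPM, Cxcl9 at 0, 0 and 1322 CPM and Cxcl2 at 6319, 14631 and 11647 CPM. Cxcl9, Cxcl10 and the CC ligand Ccl2 passed the limit of 10 CPM there only through the WGP libraries, so their calls support nothing. Cxcl3 was at 54.3, 105 and 224 CPM and Ccrl2 at 543, 2064 and 2426 CPM. Cxcr2, the receptor of Cxcl2 on neutrophils, was at 1496, 638 and 1035 CPM, lowest at 3 days as was Ccr1.

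In NK cells 4 CC ligands passed and 0 reached 2-fold at either time (medians -0.08 and -0.70, all genes -0.02 and 0.02), beside 1.43% and 2.4% of all genes higher and 1.05% and 0.836% lower, with Cxcl10 (0, 11.6 and 56.1 CPM), Cxcr4 (84.3, 93.2 and 178 CPM) and Cxcr6 (14.98, 13.7 and 51.5 CPM) higher at 7 days. In T cells 7 CC ligands passed, with 2 higher at 3 days, 1 at 7 days and 0 lower (medians 0.27 and 0.51, all genes -0.02 and 0.04), beside 0.474% of all genes higher at 3 days and 1.34% at 7 days. Ccl6 in T cells was at 5.25, 81.9 and 12.1 CPM, and Xcl1, which attracts cDC1 cells, at 219, 277 and 659.9 CPM. Ccl6 in T cells and Cxcl10 in NK cells passed the limit of 10 CPM only through the WGP libraries, so their calls support nothing. Cxcr6 and Cxcl10 in T cells were at 98.6, 139.7 and 215 CPM and 10.1, 11.3 and 166 CPM. Of 4 atypical receptors 0 passed in any of these classes.

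Across 40 points (each a class in a library with at least 50 cells, sharing libraries and free RNA) the genes most like each member were taken by Pearson correlation of log2 of CPM plus 10 among 7040 genes, as a description. The closest to Ccl3 was Ccl4 (r = 0.90), followed by the signalling adaptors Fcer1g (0.82) and Tyrobp (0.81), Rap1gap2 (0.80) and Gsap (0.78). For Ccl4 they were Ccl3 (0.90), Tyrobp (0.83), Fcer1g (0.81), Plek (0.79) and Gsap (0.78). Those of Ccl5 were AW112010 (0.80), the cytotoxic granule gene Nkg7 (0.79), Ms4a4b (0.79), Xcl1 (0.78) and Klre1 (0.77). Ccr1 lay closest to the myeloid receptor genes Sirpb1b (0.93), Pilrb2 (0.93), Cd300ld (0.92) and Cd300lb (0.92) and to Lst1 (0.91). Across the same points Ccl5 correlated at 0.32 with Ccl3, 0.42 with Ccl4 and -0.15 with Ccr1.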

How the data were processed

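The authors prepared droplet 3' libraries from sorted live CD45+ pancreatic cells and deposited raw UMI counts per gene and barcode for 3 libraries, made with Cell Ranger 3.1.0 against mm10 (GRCm38), as credited to the submitters' processing notes. No barcode selection or normalization had been applied by them. Samples were grouped by their labels, and 0 columns of values went unused.

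Barcodes with at least 1000 UMIs and at most 30% mitochondrial UMIs were kept. Scrublet (scanpy 1.11.5) called 0, 0 and 2 doublets automatically, so the highest scores were left out up to an expected 0.8% per 1000 barcodes. Clusters were built in Seurat 5.3.0 (R 4.3.3) on sctransform 0.4.2 residuals, after regressing out cell cycle, mitochondrial and ribosomal terms, without chemokine and chemokine receptor genes, with 30 components and a resolution of 0.8 (sub-clusters 0.6 for T cells, 0.4 otherwise). A cluster was named when at least 3 markers (2 for sub-clusters) and 50% of a list were raised. The mean log2 fold had to be at least 0.5, with a margin of 0.5 over the next list, on CPM plus 20. A name was withheld when the leading genes held more markers of another list, or when a shallow cluster led with none of its own. These limits were set after clusters had been seen, as was the choice of neutrophil cluster 13 alone.

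CPM was computed from UMIs summed over a class, with exact Poisson and Clopper-Pearson 95% intervals (scipy 1.17.1) that cover counting error only. Genes with a mean of at least 10 CPM entered the 2-fold counts with 5 CPM added. Classes with under 50 cells in a library gave no ratio, except neutrophil cluster 13, whose PBS value rests on 49 cells. The ratio code was tested on simulated data. TMM factors came from edgeR 4.0.16. Alternatives were stricter barcode limits, other clusterings, TMM, equal weights per cell, sex-linked subsets and other thinning.

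The members and lists were chosen with earlier results of these data known. From the lists, genes were named that reached 50 CPM in a class and differed 2-fold from PBS there, at most 10 per class by level, and the other ligands of Ccr1. For likeness the 5 genes with the highest correlation were named.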

Additional observations from a re-analysis of the deposited data

Results flagged for a closer look

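For some genes and times the ratio to PBS lay above 0 in monocyte/macrophage cells and below 0 in a lymphoid class, each class being 1 library per group, and the difference between classes was not tested. Ccl4 was not among them in T cells, nor in NK cells at 3 days, where its ratio was above 0 as well. For Ccl5 the log2 ratio of monocyte/macrophage cells exceeded that of NK cells by 3.78 at 3 days and 7.40 at 7 days, and that of T cells by 4.22 and 7.58. For Ccl4 it exceeded that of NK cells by 1.97 at 7 days. For Ccl3 it exceeded that of NK cells by 1.15 at 3 days and 1.17 at 7 days, and that of T cells by 1.13 at 7 days.

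Barcodes of at most 100 UMIs, which enter no class, held each member above its PBS level of free RNA. Ccl3 was at 259.6 CPM at 3 days and 159.9 CPM at 7 days against 83.3 CPM in PBS, and Ccl4 at 384 and 427 CPM against 102 CPM. Ccl5 was at 652 and 1768 CPM against 328 CPM, and Ccr1 at 67.2 and 68.9 CPM against 44.9 CPM.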

How the results depend on the processing

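The log2 ratios of Ccl4, Ccl5 and Ccr1 to PBS in monocyte/macrophage cells stayed above 0 under the 10 alternatives that gave them a value, with ranges of 0.67 to 1.73 and 1.17 to 1.41 (Ccl4, 3 and 7 days), 1.87 to 3.67 and 6.22 to 7.16 (Ccl5), and 0.79 to 1.43 and 0.86 to 1.10 (Ccr1). Ccl3 ranged from 0.32 to 0.78 at 3 days and from -0.03 to 0.59 at 7 days, and the cause was not tested for any of the values that follow.

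With barcodes above 10000 UMIs left out, Ccl3 was at 0.32 and -0.0265 (turned), Ccl4 at 1.73 at 3 days, and Ccl5 at 2.55 and 6.38. Within cells with Xist and no chromosome Y transcript, Ccl3 was at 0.35 and 0.58, Ccl4 at 0.67 at 3 days, Ccl5 at 1.87 and 6.22, and Ccr1 at 1.43 at 3 days. With every cell weighted alike, Ccl3 was at 0.54 and 0.18. With clustering on log-normalized values Ccl4 was at 1.53 and 1.17, and with no doublets left out Ccl5 was at 3.22 and 6.54. With TMM factors the 7-day ratios were 0.59 (Ccl3), 1.41 (Ccl4) and 1.10 (Ccr1).

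The counts of genes 2-fold higher and lower in these cells, 331 and 284 at 3 days and 365 and 479 at 7 days, became 198, 95, 226 and 182 with a mean of at least 50 CPM, which tests fewer genes. The 3-day counts were 204 higher and 149 lower within Xist cells, and 155 lower without barcodes above 10000 UMIs. The shares of monocyte/macrophage cells with a UMI rose by construction without thinning, to 38.3%, 49.8% and 40.04% (Ccl3), 24.4%, 51.9% and 41.4% (Ccl4), 4.57%, 19.8% and 62.1% (Ccl5), and 34.5%, 64.6% and 56.5% (Ccr1). Thinned to 2000 UMIs they were 15.9%, 23.7% and 20.3% (Ccl3), 13.4%, 31.3% and 24.3% (Ccl4), 9.40% and 44.2% (Ccl5 after WGP), and 14.4%, 20.3% and 23.3% (Ccr1).

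In NK cells, T cells and neutrophils 39, 37 and 52 values moved by less than their counting interval, 17, 22 and 23 moved further, and 1, 7 and 5 turned direction. Ccl3 in NK cells at 7 days was at 0.33 within Xist cells. Ccl4 in T cells at 3 days was at -0.16 with no doublets left out, -0.0574 with log-normalized clustering, -3.31 within Xist cells and -0.19 within cells with a Y transcript, where the 7-day ratio was -0.99. Ccl3 in T cells at 7 days was at 1.98 with no doublets left out and 0.81 within Xist cells. Ccr1 in neutrophils at 3 days was at -0.41 without barcodes above 10000 UMIs, -0.24 with every cell weighted alike, -0.0399 with TMM factors and -0.88 in cluster 13 alone, where it was -0.28 at 7 days.

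Cells with a Y transcript gave no value for monocyte/macrophage cells (6 in PBS, below the minimum of 50) or NK cells, and neither restriction gave a value for neutrophils, nor Xist for NK cells at 3 days. No paired analysis was possible because each group has 1 library. For the same reason no setting leaves out a library.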
